A study of Mus musculus with 45 samples.

Results

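The imprinted growth regulators examined here are 10 mouse genes, Igf2, H19, Cdkn1c, Phlda2, Peg10, Peg3, Mest, Dlk1, Meg3 and Grb10, taken by symbol from the 9667 genes with a tested probe on Illumina MouseWG-6 v2 arrays. They were represented by 21 of the 45281 probes, 17 of which were detected often enough to be tested, and each of the 10 genes had at least 1 tested probe. An imprinted gene is transcribed mainly from the copy inherited from one parent, because DNA methylation laid down in the egg or sperm marks that copy. Igf2, Peg10, Peg3, Mest and Dlk1 are expressed from the paternal copy in mouse and mostly promote fetal or placental growth, whereas H19, Cdkn1c, Phlda2, Meg3 and, in most tissues, Grb10 are expressed from the maternal copy and mostly restrain it. The placenta is known for high expression of several of these genes, and imprints are known to vary between embryonic stem cell (ESC) lines. The arrays do not separate parental copies, so every value below is the summed signal of both.

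The study asked what loss of the Nodal and Activin signal transducers Smad2 and Smad3 changes as ESCs differentiate into embryoid bodies (EBs), cell aggregates formed in hanging drops without LIF. Smad2/3 DKO cells lack both genes, Smad2 KO cells are homozygous for Smad2 tm1Rob, Smad3 KO cells carry a deletion around the first exon of Smad3 made with a Cas9 nickase, and WT cells carry neither change. All lines were XY 129/Sv//Ev lines grown without feeders in serum and LIF, and each genotype was profiled as ESCs and as d2 and d3 EBs, with 4 arrays in 9 groups and 3 arrays in the 3 ESC knockout groups (45 arrays, 16 clones). Each array of a group is a separate clone or line, so that p-values measure the spread between clones. The Smad2/3 DKO clones (KT15.2G9, KT15.1F6, KT15.2D5 and KT15.1F11) were all made from the Smad2 KO clone KT15, and the Smad3 KO clones (CCE.1H1, CCE.2E7, CCE.2B7 and CCE.2H2) all from the WT line CCE, so clones of these genotypes share a parent line. Their spread therefore holds no difference between parent lines. The other lines were KT12, KT17 and KT11 (Smad2 KO) and CCB, CCH and CCF (WT). The number of EBs collected differed with genotype: 5000 for Smad2/3 DKO cells (2500 for KT15.2G9 at d2), 2500 at d2 and 5000 at d3 for Smad2 KO cells, and 1250 for Smad3 KO and WT cells. EB number therefore cannot be told apart from genotype where Smad2/3 DKO or Smad2 KO EBs are compared with WT, while it was equal between Smad3 KO and WT EBs and between d3 Smad2/3 DKO and d3 Smad2 KO EBs. By name every Smad2/3 DKO and Smad2 KO clone was a KT line, and every WT and Smad3 KO clone a CC line. Line origin therefore cannot be told apart from loss of Smad2 at any stage.

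Median raw signal was 111 to 243 per array and 11338 to 14256 probes were detected. The 63 pairs of arrays within a group correlated at 0.869 to 0.987 and none were identical. In 4 libraries the Smad3 probe or the position on the first principal component (34.2% of the variance), which separates ESCs from EBs, went against the label. Smad3 was detected in the libraries labelled ESC Smad3 KO replicate 4 (CCE.2B7, 9.75 log2 units, on the EB side) and d2 Smad2/3 DKO replicate 4 (KT15.2D5, 9.46). It was not detected in the library labelled d2 Smad2 KO replicate 4 (KT17, 5.19), which like the library labelled d3 Smad2 KO replicate 4 (KT12) lay on the ESC side. These doubted libraries were kept under their labels, and for many of the results that rest on them the value without them is also given. The Smad2 probe read 8.37 to 9.75 in all 45 arrays and checks nothing about the Smad2 deletion.

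Levels are log2 intensities of the brightest tested probe of a gene after background correction and quantile normalization, and levels of different genes are not compared. Igf2, Cdkn1c, Phlda2, Peg3, Mest and Grb10 were detected above negative control probes in all 45 arrays (detection p below 0.01). Dlk1 was detected in 44, H19 in 39, Meg3 in 27 and Peg10 in 15. The second probes of Peg3, Mest, Dlk1 and Grb10 ran with the brightest one over the 45 arrays (r = 0.99, 0.95, 0.94 and 0.88), the third probes of Peg3 and Mest at r = 0.87 each, and the second Peg10 probe at r = 0.66. The 4 untested probes, 2 of Meg3 and 1 each of Peg3 and Grb10, were detected in no array.

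The probes of both noncoding members are shown because both went from clear to undetected signal between clones of 1 genotype, and because a probe of 50 bases reads a transcript without separating its parental copies. The H19 probe has 50% GC and the Meg3 probe 62% GC.
H19 probe, chromosome 7: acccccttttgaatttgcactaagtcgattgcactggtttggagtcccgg
Meg3 probe, chromosome 12: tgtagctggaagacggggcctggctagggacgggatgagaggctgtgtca

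Imprinting acts through methylation of CpG dinucleotides. The CpGs just upstream of a start are given as sequence only. Methylation was not measured, and whether these windows carry an imprint was not examined. The promoter tables of RefSeq (GRCm38.p6) held starts of Igf2, Phlda2, Peg3, Mest, Dlk1, Meg3 and Grb10. The starts of a few are printed 5′ to 3′ on the gene's own strand, 250 bases each, with every CpG in capitals: that of Phlda2, which rose in Smad2/3 DKO EBs, that of Grb10 with the most CpGs, whose level differed most between clones, and that of Meg3, which was not detected in some clones.
Phlda2, chr7:143502525-143502774, minus strand: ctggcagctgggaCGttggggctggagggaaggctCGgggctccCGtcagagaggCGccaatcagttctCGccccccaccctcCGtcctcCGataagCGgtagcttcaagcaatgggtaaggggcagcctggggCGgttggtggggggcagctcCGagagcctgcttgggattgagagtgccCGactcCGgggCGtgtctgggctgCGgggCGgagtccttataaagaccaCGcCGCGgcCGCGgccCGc
Grb10, chr11:12037421-12037670, minus strand: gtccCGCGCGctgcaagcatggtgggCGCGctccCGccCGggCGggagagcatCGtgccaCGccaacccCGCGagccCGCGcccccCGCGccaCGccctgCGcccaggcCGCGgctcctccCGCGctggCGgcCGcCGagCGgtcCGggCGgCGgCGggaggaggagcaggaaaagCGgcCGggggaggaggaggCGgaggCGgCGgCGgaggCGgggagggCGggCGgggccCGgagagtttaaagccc
Meg3, chr12:109540746-109540995, plus strand: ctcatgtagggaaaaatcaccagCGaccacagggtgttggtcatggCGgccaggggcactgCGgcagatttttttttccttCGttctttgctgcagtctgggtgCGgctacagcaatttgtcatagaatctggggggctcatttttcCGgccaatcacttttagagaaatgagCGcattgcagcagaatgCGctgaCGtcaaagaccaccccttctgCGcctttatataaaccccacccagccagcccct
Counted over 300 bases, the printed 250 plus the 50 that follow the start, these windows held 26, 45 and 13 CpGs, more than 83.1%, 98.1% and 62.1% of 32851 mouse promoters (median 7 CpGs). Of the 2 Meg3 starts the one with more CpGs is shown, and the other held 1 CpG, more than 5.4% of promoters. TGCCGC, the motif read by the imprint-protecting zinc finger protein ZFP57 when it is methylated, was searched on both strands and is held by 11.6% of all promoters. It had 1 match in the 300-base window of the Meg3 start shown, 1 in that of Grb10 and none in that of Phlda2. It also matched once at the third Igf2 start and at 2 places at each of 2 overlapping Mest starts. A match is a description of these letters only.

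**Figure D1:**
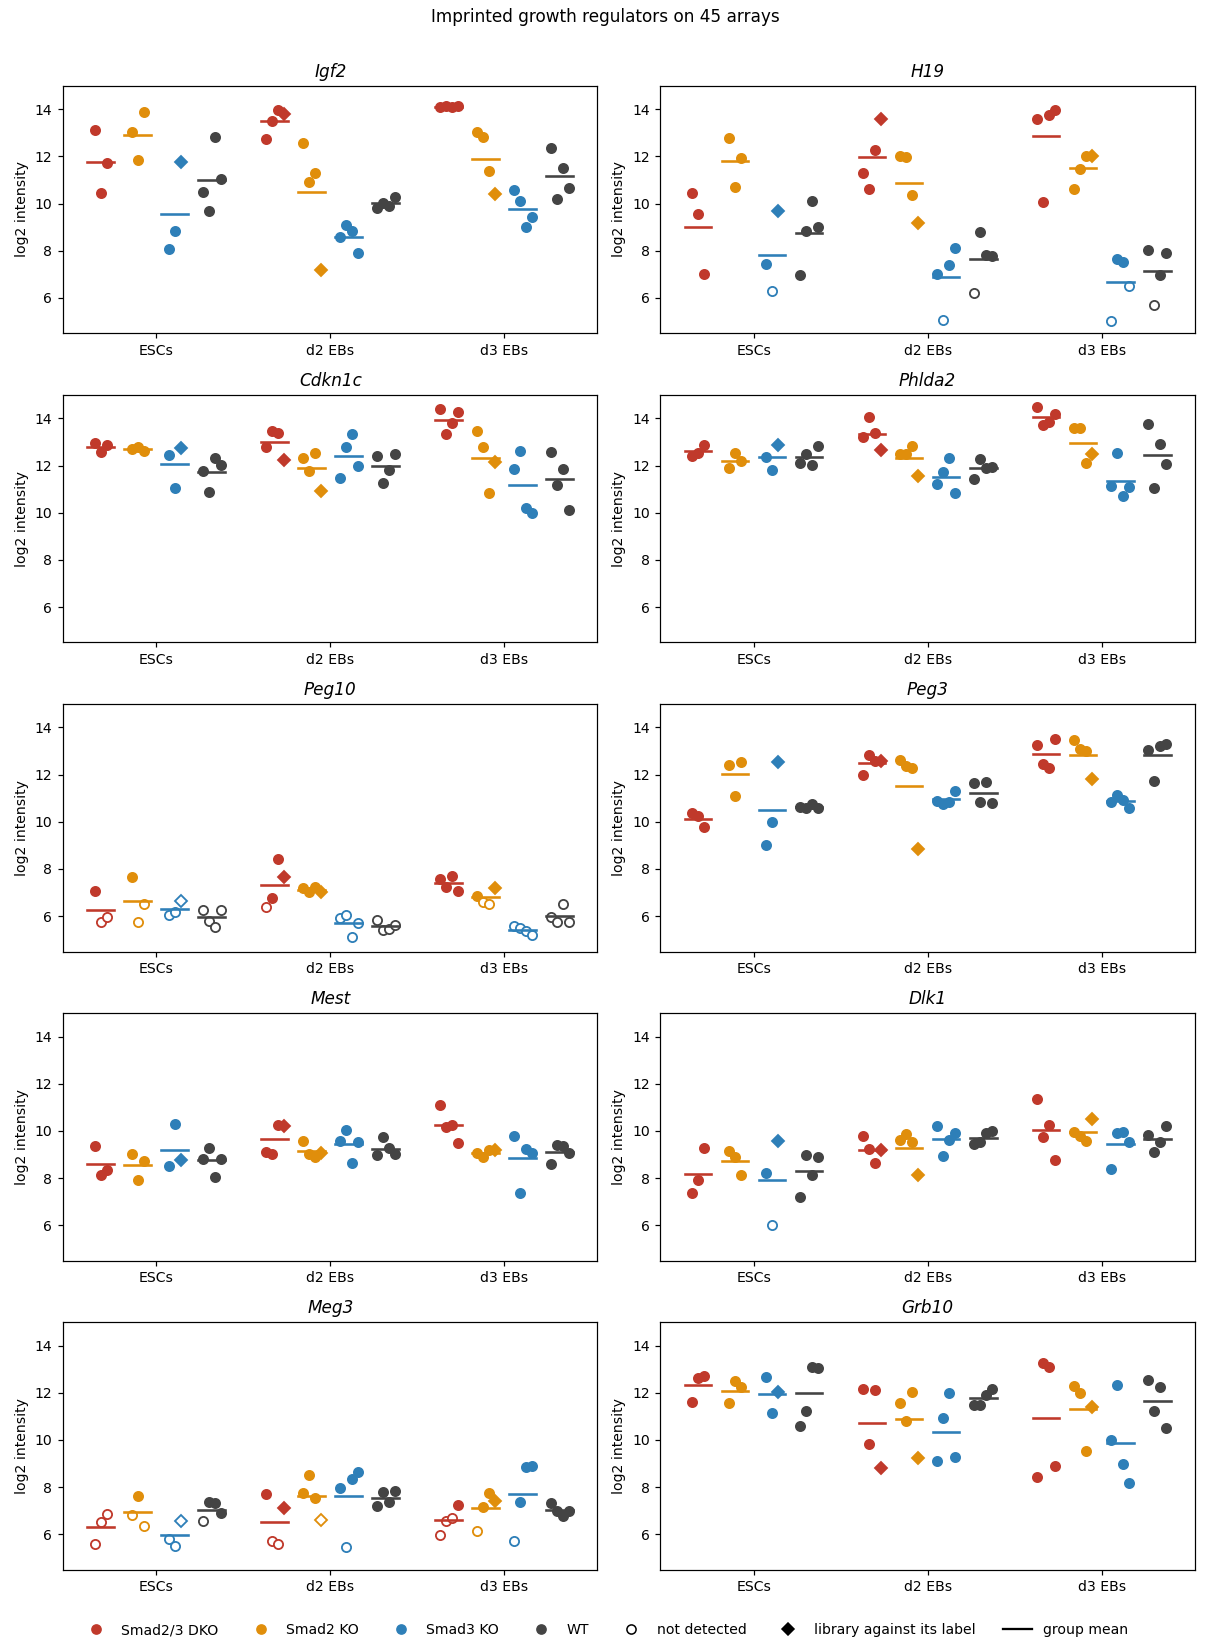
Log2 intensity (y axis) of the 10 imprinted genes on each of 45 arrays, by stage and genotype, with lines at group means, open symbols for arrays where the gene was not detected and diamonds for the 4 doubted libraries. Igf2 at d3 read 14.08 to 14.16 in Smad2/3 DKO EBs, above all other d3 arrays, while Grb10 in the same group split into values near 13 and values below 9.

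Igf2, H19, Cdkn1c, Phlda2 and Peg10, 5 of the 10 genes, rose in d3 Smad2/3 DKO EBs compared with WT (adjusted p below 0.05 in limma), and 0 of the 10 fell. Peg10 was tested only because it was detected in Smad2 KO and Smad2/3 DKO arrays. Of all genes tested 17% were called at d3, 9.51% as higher and 7.51% as lower. The median change of the 10 genes was 1.27 log2 units, against -0.03 over all genes. At d2, 4 of the 10 were called as higher (Igf2, H19, Phlda2 and Peg10), where 2.42% of all genes were called and 1.75% as higher. The median change at d2 was 1.12, against -0.01 over all genes. With the doubted libraries left out 5 of the 10 were called at d2 (4.63% of all genes) and 5 at d3 (23.2%). The values of Smad2/3 DKO and WT EBs did not overlap for 5 of the 10 genes at d3 (27.1% of all genes) and for 5 at d2 (11%).

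Fewer calls were made in the other knockout comparisons. In ESCs limma called 0 of the 10 genes and 0% of the 9667 genes in any genotype comparison. At an unadjusted p below 0.05 and a fold above 1.5, the threshold of the study's methods, 1 of the 10 genes passed in Smad2/3 DKO ESCs (2.4% of all genes), 2 in Smad2 KO ESCs (5.19%) and 1 in Smad3 KO ESCs (4.2%), each against WT, and 2 between Smad2/3 DKO and Smad2 KO ESCs (2.67%). In d2 EBs 0 of the 10 were called in Smad2 KO (0.559% of all genes), 0 in Smad3 KO (0.0207%) and 0 in Smad2/3 DKO against Smad2 KO (0.0103%), and at the unadjusted threshold 2 (8.1%), 0 (5.62%) and 3 (2.3%). In d3 EBs 1 of the 10 was called in each of Smad2 KO (3.04%, 2.32% as higher), Smad3 KO (1.31%) and Smad2/3 DKO against Smad2 KO (4.83%), and at the unadjusted threshold 2 (11.7%), 2 (13.2%) and 5 (13.1%). For Smad2/3 DKO against WT that threshold gave 5 genes at d2 (10.3%) and 6 at d3 (22.3%). All comparisons with WT at a stage share the same WT arrays, so they are not independent of each other.

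Igf2 encodes a secreted insulin-like growth factor that drives fetal and placental growth. In d3 EBs the 4 Smad2/3 DKO clones read 14.09 (KT15.2G9), 14.16 (KT15.2D5), 14.08 (KT15.1F6) and 14.14 (KT15.1F11), against 12.37 (CCE), 10.18 (CCB), 11.5 (CCH) and 10.66 (CCF) in WT lines. Every Smad2/3 DKO value lay above every WT value, and they differed by less than 0.1 log2 units. The mean change was 2.94 ± 0.54 (SE), a 7.68-fold difference (adjusted p = 0.00192, limma). On these arrays 113 of 16896 tested probes were brighter than Igf2, whose raw signal of 13500 to 24000 compares with a highest signal of 37300 on any probe. At d2 the Smad2/3 DKO clones read 12.73 (KT15.1F6), 13.49 (KT15.2G9), 13.97 (KT15.1F11) and 13.79 (KT15.2D5, doubted), against 9.82, 10.01, 9.9 and 10.3 in WT lines. Again the groups did not overlap, and the change was 3.49 ± 0.77 (adjusted p = 0.0277, or 0.00021 with a change of 3.39 ± 0.39 without the doubted libraries). The d2 call was lost in 7 of 16 fits that each left out 1 array (highest adjusted p = 0.0813). In ESCs the Smad2/3 DKO clones read 13.13, 10.46 and 11.72, against 10.49, 9.69, 12.82 and 11.06 in WT lines, and the groups overlapped (change 0.76 ± 0.96, adjusted p = 1).

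H19 is a noncoding RNA that shares an imprinting control region with Igf2, the pair being expressed from opposite parental copies. In d3 EBs H19 read 13.58 (KT15.2G9), 10.08 (KT15.2D5), 13.76 (KT15.1F6) and 13.97 (KT15.1F11) in Smad2/3 DKO clones, against 8.02, 5.72, 6.99 and 7.9 in WT lines, where the line at 5.72 (CCB) was not detected. Clone KT15.2D5 stood apart from the other Smad2/3 DKO clones but still above every WT line. H19 rose by 5.70 ± 0.80 (51.8-fold, adjusted p = 0.000232), or by 6.62 (98.4-fold) without KT15.2D5 and by 4.77 (27.3-fold) without background correction. In d2 EBs it rose by 4.29 ± 0.80 (adjusted p = 0.00925, or 0.00912 without the doubted libraries), and by 3.58 without background correction. The d2 values were 11.32, 10.64, 12.27 and 13.61 (KT15.2D5, doubted) in Smad2/3 DKO clones and 6.22, 8.8, 7.84 and 7.8 in WT lines, the first of the WT lines not being detected. In ESCs the Smad2/3 DKO clones read 10.47, 9.57 and 7.01, against 6.98, 8.84, 10.13 and 9.0 in WT lines, with overlapping groups (change 0.28 ± 0.99). The Smad2/3 DKO effect on H19 differed between stages: at d3 it was 5.42 ± 1.32 larger than in ESCs (adjusted p = 0.0134, a test that called 3.97% of all genes, and adjusted p = 0.00392 and 8.58% without the doubted libraries). H19 was the only one of the 10 genes with such a call.

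With all libraries, the only call of H19 or Igf2 in a single knockout was that of H19 in d3 Smad2 KO EBs. In Smad3 KO EBs H19 ran from 5.08 to 8.1 at d2 and from 5.01 to 7.66 at d3. These ranges overlapped those of WT EBs (6.22 to 8.8 and 5.72 to 8.02). H19 rose in d3 Smad2 KO EBs, with 10.64 (KT17), 11.48 (KT15), 12.01 (KT11) and 12.00 (KT12, doubted), against 8.02, 5.72, 6.99 and 7.9 in WT lines. All 4 Smad2 KO values lay above all WT values, where the groups did not overlap in either direction for 10.8% of all genes (change 4.38 ± 0.80, adjusted p = 0.0101, or 0.0192 with a change of 4.22 and 3.28% of all genes called without the doubted libraries), and H19 was the only one of the 10 called here. In d2 Smad2 KO EBs H19 read 12.01, 11.96, 10.35 and 9.17 (KT17, doubted), against 6.22 to 8.8 in WT lines. These groups did not overlap either (2 of the 10 genes and 7.69% of all genes), although the change of 3.21 ± 0.80 did not pass the threshold (adjusted p = 0.106) unless the doubted libraries were left out (3.77, adjusted p = 0.0217, 1.58% of all genes called). Smad2 KO ESCs read 12.8 (KT12), 10.72 (KT15) and 11.93 (KT17), against 6.98 to 10.13 in WT ESCs, again without overlap (3 of the 10 genes and 8.66% of all genes) and without a call (change 3.08 ± 0.99, adjusted p = 0.579).

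For Igf2 the Smad2 KO d3 values of 13.02, 12.82, 11.39 and 10.42 (KT12, doubted) overlapped the WT range of 10.18 to 12.37. The change was 0.74 ± 0.54 (adjusted p = 0.551), or 1.23 ± 0.49 without the doubted libraries (adjusted p = 0.252). At d2 Smad2 KO clones read 10.91 to 12.57, above all WT lines, apart from the doubted KT17 (7.19). Without the doubted libraries the d2 change was 1.58 ± 0.39 (adjusted p = 0.0679). Smad2 KO ESCs read 11.84 to 13.88, overlapping WT ESCs (9.69 to 12.82), with no call. Igf2 was higher in d3 Smad2/3 DKO than in d3 Smad2 KO EBs, by 2.21 ± 0.54 (adjusted p = 0.0326). Without the doubted libraries this difference was 1.71 ± 0.49 (adjusted p = 0.0533, 7.47% of all genes called), and it was lost in 6 of 16 fits that left out 1 library. Smad3 KO clones had Igf2 at 10.58 (CCE.2E7), 10.12 (CCE.2B7), 9.0 (CCE.1H1) and 9.42 (CCE.2H2) at d3, against 12.37, 10.18, 11.5 and 10.66 in WT lines, and at 8.57, 9.08, 8.83 and 7.89 at d2, against 9.82 to 10.3. The d2 groups did not overlap (Igf2 alone of the 10 genes, and 7.64% of all genes) and the d3 groups did, and neither change passed the test (-1.42 ± 0.77 with adjusted p = 0.642 at d2, -1.40 ± 0.54 with adjusted p = 0.173 at d3). The Smad2/3 DKO change of Igf2 from WT exceeded the sum of both single knockout changes by 3.60 ± 0.77 at d3 (adjusted p = 0.0361, 1.16% of all genes called). That sum holds the uncalled changes of 0.74 in Smad2 KO and -1.40 in Smad3 KO EBs. Without the doubted libraries the departure was 3.10 ± 0.67 (adjusted p = 0.0275), and Peg10 departed as well (1.31 ± 0.28, adjusted p = 0.0267, 2.37% of all genes called). At d2 the departure of Igf2 was 4.43 ± 1.09 with an adjusted p of 0.451, and 0% of genes were called.

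Cdkn1c and Phlda2 lie in a neighbouring imprinted domain of chromosome 7. Cdkn1c encodes the cyclin-dependent kinase inhibitor p57Kip2, and Phlda2 a small pleckstrin homology domain protein that restrains growth of the placenta. Cdkn1c read 14.4, 13.32, 13.81 and 14.28 in d3 Smad2/3 DKO clones, against 12.59, 11.17, 11.84 and 10.13 in WT lines. The groups did not overlap, and Cdkn1c rose by 2.52 ± 0.65 (5.74-fold, adjusted p = 0.0161). Leaving out the WT line CCF (10.13) ended this call (adjusted p = 0.061). In d3 Smad2 KO EBs Cdkn1c ran from 10.82 to 13.47, reaching into the Smad2/3 DKO range, and in d3 Smad3 KO EBs from 9.97 to 12.63. Neither differed from WT by a call. In d2 EBs Cdkn1c read 12.79, 13.48, 13.4 and 12.25 (KT15.2D5, doubted) in Smad2/3 DKO clones, against 12.39, 11.26, 11.8 and 12.51 in WT lines. The groups overlapped and there was no call (0.99 ± 0.44, adjusted p = 0.335). Without the doubted libraries they did not overlap, still with no call (1.23 ± 0.41, adjusted p = 0.127). In ESCs the Smad2/3 DKO clones (12.95, 12.59 and 12.88) and Smad2 KO clones (12.69, 12.77 and 12.63) all lay above the WT lines (11.79, 10.87, 12.3 and 12.01), with no overlap in either direction for 6.22% of all genes between Smad2/3 DKO and WT ESCs, at changes of 1.07 ± 0.39 and 0.96 ± 0.39 that did not pass the test (adjusted p = 1 and 0.613).

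Phlda2 read 13.19, 14.06, 13.39 and 12.67 (KT15.2D5, doubted) in d2 Smad2/3 DKO clones, against 11.44, 12.27, 11.91 and 11.96 in WT lines. The groups did not overlap, and the rise of 1.43 ± 0.35 lay just inside the threshold (adjusted p = 0.0498, or 0.01 without the doubted libraries). At d3 it read 14.48, 13.71, 13.86 and 14.18 in Smad2/3 DKO clones, against 13.75, 11.05, 12.92 and 12.06 in WT lines, so that the WT line CCE (13.75) reached into the Smad2/3 DKO range. The d3 change was 1.61 ± 0.52 (adjusted p = 0.048). In d3 Smad2 KO EBs Phlda2 ran from 12.12 to 13.6, just below the Smad2/3 DKO clones and within the WT range. In d3 Smad3 KO EBs it ran from 10.71 to 12.53, and neither single knockout was called. Both Phlda2 calls were fragile, being lost in 12 of 16 fits at d2 and 11 of 16 at d3 that each left out 1 library. In ESCs Phlda2 read 12.4, 12.54 and 12.88 in Smad2/3 DKO clones and 12.12, 12.51, 12.04 and 12.85 in WT lines.

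Peg10 is a retrotransposon-derived gene that the mouse placenta requires. It was not detected in any of the 12 WT or any of the 11 Smad3 KO arrays. Both Peg10 probes thus passed the filter of 3 detected arrays only through Smad2 KO and Smad2/3 DKO arrays. Their tests against WT are therefore not independent of that filter. In d3 Smad2/3 DKO EBs it was detected in all 4 clones at 7.57, 7.22, 7.7 and 7.05, against undetected values of 5.95, 5.74, 6.52 and 5.76 in WT lines. Peg10 was at least 1.63-fold higher (fitted change 1.40 ± 0.21, adjusted p = 0.000404), a bound taken from the lowest signal detected on the WT arrays. Without background correction the fitted change was 0.65 at d3 (1.57-fold, below that bound) and 0.84 at d2, against 1.74 with it. At d2 it read 6.4 (not detected), 6.78, 8.44 and 7.65 (KT15.2D5, doubted) in Smad2/3 DKO clones, against 5.82, 5.4, 5.45 and 5.63 in WT lines. Peg10 was at least 1.46-fold higher there (adjusted p = 0.0129, or 0.0261 without the doubted libraries). Smad2 KO EBs read 7.21, 7.04, 7.22 and 7.03 (KT17, doubted) at d2 and 6.87, 6.58, 6.51 and 7.21 (KT12, doubted) at d3, where 6.58 and 6.51 were not detected. At d2 all Smad2 KO values lay above the WT lines and at d3 they overlapped. Neither Smad2 KO change passed the threshold (adjusted p = 0.0581 at d2 and 0.0591 at d3, or 0.0593 and 0.117 without the doubted libraries). Peg10 in d3 Smad2/3 DKO EBs exceeded that in d3 Smad2 KO EBs by 0.74 ± 0.21 without the doubted libraries (adjusted p = 0.0472). That fit called 7.47% of all genes, and with all libraries this Peg10 difference was not called. In ESCs Peg10 was detected only in Smad2/3 DKO clone KT15.2G9 (7.08) and Smad2 KO clone KT12 (7.66). The second Peg10 probe also rose in d3 Smad2/3 DKO EBs, at least 2.35-fold (adjusted p = 0.00059). At d2 it was detected in 0 of 4 Smad2/3 DKO and 0 of 4 WT arrays. Its d2 values lay above all WT values, but the change of 1.07 ± 0.28 did not pass the threshold (adjusted p = 0.0617).

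Trophoblast markers moved with these genes. Of 15 listed trophoblast genes (among them Gata3, Plac1 and Rhox9) 13 were tested. The list was drawn up with earlier results of these data known, and the study had named Plac1, Rhox6 and Rhox9 as raised in d3 Smad2/3 DKO EBs. Plac1 was detected in no WT or Smad3 KO array, so it was tested only through Smad2 KO and Smad2/3 DKO arrays. The counts below are therefore a description and not separate support. In Smad2/3 DKO EBs 11 of the 13 rose at d3 and 10 at d2, and 7 rose in d3 Smad2 KO EBs. Of all genes 9.51%, 1.75% and 2.32% were called as higher in these comparisons. Cdx2, also listed, did not rise at d3, at 8.68 to 10.26 in Smad2/3 DKO EBs against 8.83 to 10.94 in WT EBs. Elf5, another listed gene, had no tested probe. The median changes of the 13 were 3.38, 3.5 and 1.86. The log2 of their mean signal was 11.55 to 12.17 in d3 Smad2/3 DKO EBs, 10.44 to 11.32 in d3 Smad2 KO EBs, 7.41 to 8.11 in d3 Smad3 KO EBs and 8.03 to 10.06 in d3 WT EBs. At d2 it was 10.08 to 11.48 in Smad2/3 DKO EBs and 7.14 to 7.9 in WT EBs. Of the 13 markers 12 or 13 were detected per array in d3 Smad2/3 DKO EBs and 5 or 6 in d3 WT EBs. Streak and mesoderm markers ran the other way, all 7 being lower in d3 Smad2/3 DKO EBs (5.37 to 5.5, none detected) than in d3 WT EBs (10.2 to 12.23). Of 7 naive ESC genes 5 were higher in d3 Smad2/3 DKO than in d3 WT EBs. In that comparison 9.51% of all genes were called as higher and 7.51% as lower. The part of these cell type markers in the changes of Igf2, H19, Cdkn1c, Phlda2 and Peg10 was not tested, and in bulk RNA more cells of a type and more RNA per cell cannot be told apart.

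**Figure D2:**
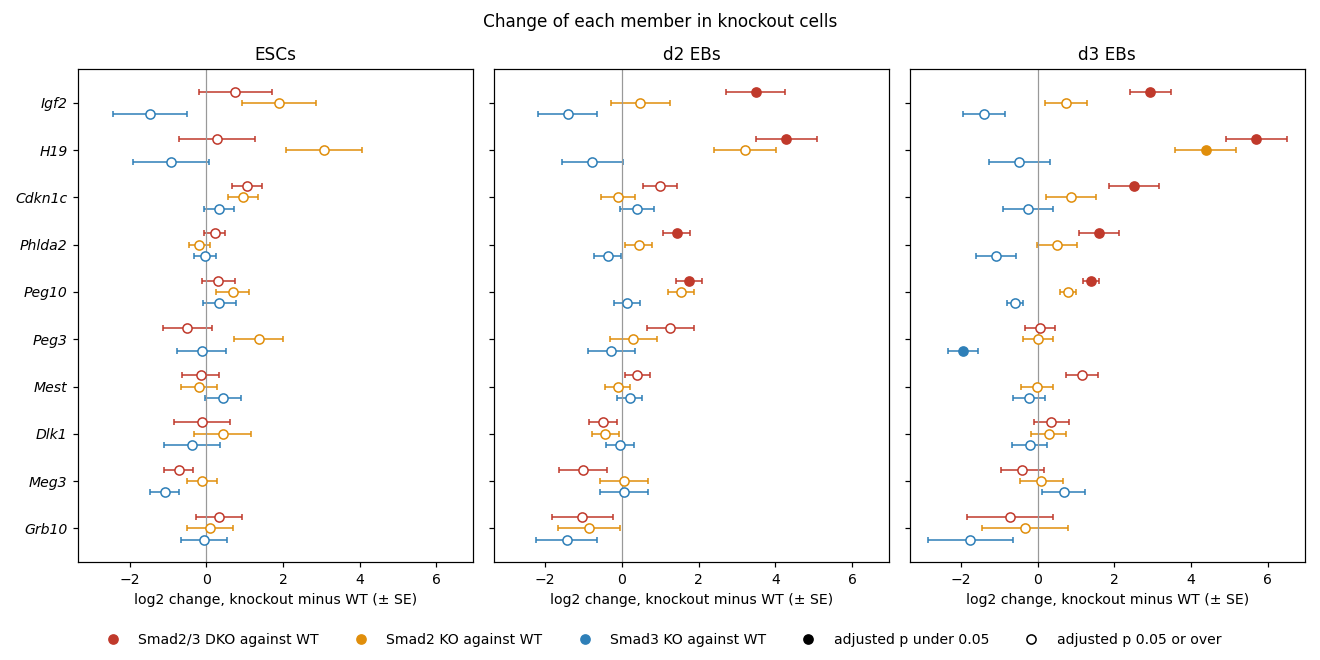
Change of each gene in knockout against WT cells (x axis, log2 units, mean difference with bars of 1 SE) in ESCs, d2 EBs and d3 EBs, filled where the adjusted p was below 0.05. Filled points are Smad2/3 DKO for Igf2, H19, Phlda2 and Peg10 at d2 and d3 and for Cdkn1c at d3, Smad2 KO for H19 at d3 and Smad3 KO for Peg3 at d3.

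Peg3 and Dlk1, both paternally expressed, were the genes that changed as WT cells differentiated. Peg3 encodes a large zinc finger protein that acts in growth and maternal behaviour in mice. In CCE, CCB, CCH and CCF it read 10.62, 10.6, 10.74 and 10.6 in WT ESCs, 11.63, 10.82, 11.69 and 10.78 in d2 WT EBs and 13.03, 11.74, 13.2 and 13.31 in d3 WT EBs. Each of the 4 WT lines followed the same order, and the stages did not overlap, which in either direction held for 32.3% of all genes between d3 and ESCs, 27.1% between d2 and ESCs and 14.8% between d3 and d2. Peg3 rose by 2.18 ± 0.32 between ESCs and d3 (adjusted p = 0.000206) and by 1.59 ± 0.32 between d2 and d3 (adjusted p = 0.0167, lost in 4 of 12 fits that left out 1 array). Of all genes 35.1% were called between d3 EBs and ESCs, 18.7% as higher and 16.4% as lower, and 5.95% between d3 and d2 EBs.

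In d3 Smad3 KO EBs Peg3 read 10.84, 11.12, 10.94 and 10.57, against 13.03, 11.74, 13.2 and 13.31 in WT lines. No Smad3 KO value reached the WT range, and Peg3 fell by 1.95 on the log2 scale (SE 0.39, adjusted p = 0.0311, or 0.0112 without the doubted libraries). Of all genes 1.31% were called here, 0.797% as lower, and 6.34% without the doubted libraries, while 2 of the 10 genes and 12.3% of all genes did not overlap. The second Peg3 probe gave a change of -2.23 ± 0.45 (adjusted p = 0.0316) and the third one of -1.25 (adjusted p = 0.11), and 6 of 16 fits that left out 1 library lost the call of the brightest probe. Peg3 was the only one of the 10 genes called in any Smad3 KO comparison. In d3 Smad2/3 DKO EBs, which also lack Smad3, Peg3 read 13.27, 12.43, 12.28 and 13.51, a change of 0.05 ± 0.39 from WT, and in d3 Smad2 KO EBs 13.46, 13.08, 13 and 11.83 (KT12, doubted). At d2 all Smad2/3 DKO values (11.98, 12.82, 12.59 and 12.57) lay above the WT lines (10.78 to 11.69), at 1.26 ± 0.61 (adjusted p = 0.39). With the doubted libraries left out this d2 change passed (1.23 ± 0.26, adjusted p = 0.0175), as did that of d2 Smad2 KO EBs (1.19, adjusted p = 0.0446), whose doubted library KT17 read 8.85 beside 12.27 to 12.63 in the others.

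Dlk1 encodes a transmembrane protein related to the Notch ligands. It read 7.19, 8.99, 8.12 and 8.89 in WT ESCs, 9.45, 9.51, 9.9 and 9.98 in d2 WT EBs and 9.83, 9.09, 9.52 and 10.19 in d3 WT EBs. All EB values lay above all ESC values, and Dlk1 rose by 1.42 ± 0.36 at d2 (adjusted p = 0.0107, 28.4% of all genes called) and by 1.36 ± 0.36 at d3 (adjusted p = 0.0102). No knockout comparison was called. In d3 Smad2/3 DKO EBs Dlk1 ran from 8.75 (KT15.1F11) to 11.36 (KT15.2G9), a range that covered the WT lines.

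Mest encodes a protein of the alpha/beta hydrolase family expressed in mesoderm and placenta. In d3 EBs it read 11.1, 10.17, 10.24 and 9.47 in Smad2/3 DKO clones, against 8.58, 9.4, 9.35 and 9.05 in WT lines. The groups did not overlap, but the change of 1.15 ± 0.42 did not pass the threshold (adjusted p = 0.0787). On the other Mest probes the groups overlapped, with changes of 1.04 and 0.94. The same comparison passed without background correction (change 1, adjusted p = 0.0467).

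Grb10 encodes an adaptor that damps signaling from the insulin and Igf1 receptors. No comparison of Grb10 was called, and its group means lay between 12.31 in Smad2/3 DKO ESCs and 9.87 in d3 Smad3 KO EBs. It was the gene with the widest spread. In d3 EBs the Smad2/3 DKO clones read 8.43 (KT15.2G9), 13.27 (KT15.2D5), 13.09 (KT15.1F6) and 8.89 (KT15.1F11), against 12.55, 11.24, 12.25 and 10.49 in WT lines. A pair of clones thus lay above all WT lines and a pair below all of them, and the mean change was -0.72 ± 1.11. Smad3 KO clones at d3 read 9.98 (CCE.2E7), 12.32 (CCE.2B7), 9.0 (CCE.1H1) and 8.18 (CCE.2H2). The level did not stay with the clone: KT15.1F11 read 12.11 at d2 and 8.89 at d3, KT15.2D5 12.72 as ESCs, 8.79 at d2 (doubted) and 13.27 at d3, and CCE.1H1 12.65, 11.98 and 9.0. WT ESCs had a similar split, at 10.61 (CCE), 11.22 (CCB), 13.08 (CCH) and 13.06 (CCF), whereas the 4 WT lines agreed within 11.48 to 12.17 at d2.

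Meg3 is a maternally expressed noncoding RNA of the Dlk1 domain on chromosome 12. It was detected in 3 of 11 Smad2/3 DKO, 7 of 11 Smad2 KO, 6 of 11 Smad3 KO and 11 of 12 WT arrays, and no comparison of it was called. Smad3 KO clone CCE.2E7 did not have detectable Meg3 at any stage (5.52 as ESCs, 5.45 at d2, 5.71 at d3), and neither did Smad2/3 DKO clone KT15.2G9 (5.58, 5.73 and 5.97) or Smad2 KO clone KT17 (6.37, 6.60 in the doubted d2 library, 6.15). The other Smad2/3 DKO clones were detected in only 1 array each, KT15.1F6 at d2 (7.72), KT15.2D5 at d2 (7.1, doubted) and KT15.1F11 at d3 (7.26). In Smad3 KO cells Meg3 was undetected in all 3 ESC arrays, CCE.1H1 reading 5.8 and CCE.2B7 6.57 (doubted), and apart from CCE.2E7 all d2 and d3 arrays were detected, at 7.37 to 8.89. WT lines read 6.57 to 7.82, with CCE undetected as ESCs.

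Rian, a noncoding RNA of the same maternal transcript cluster, was undetected in 7 arrays, all of them also without detected Meg3. It was not detected in CCE.2E7 (5.72, 5.59 and 5.22) or KT15.2G9 (6.07, 6.15 and 5.89) at any stage, nor in KT15.1F11 at d2 (5.89), and it was detected in all other arrays at 7.14 to 10.34. KT15.1F11 at d3 read 9.51 for Rian and 7.26 for Meg3, against 5.57 for Meg3 at d2. A further 11 arrays had detected Rian without detected Meg3, among them all those of KT17 (Rian at 8.2, 9.36 in the doubted library and 8.17) and both the ESC and d3 arrays of KT15.1F6 and KT15.2D5. CCE, the parent line of CCE.2E7, and KT15, the parent clone of KT15.2G9, both had Rian, the lowest value of CCE being 8.26. In CCE.2E7 Dlk1, on the paternal side of the domain, was undetected in ESCs at 6.00 and read 8.92 at d2 and 8.38 at d3. Its H19 was undetected at all 3 stages (6.28, 5.08 and 5.01), while its Mest (10.29, 10.04 and 9.80) exceeded that of every other Smad3 KO clone at the same stage. These clone comparisons have 1 array per clone and stage, so they are values with no test.

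**Figure D3:**
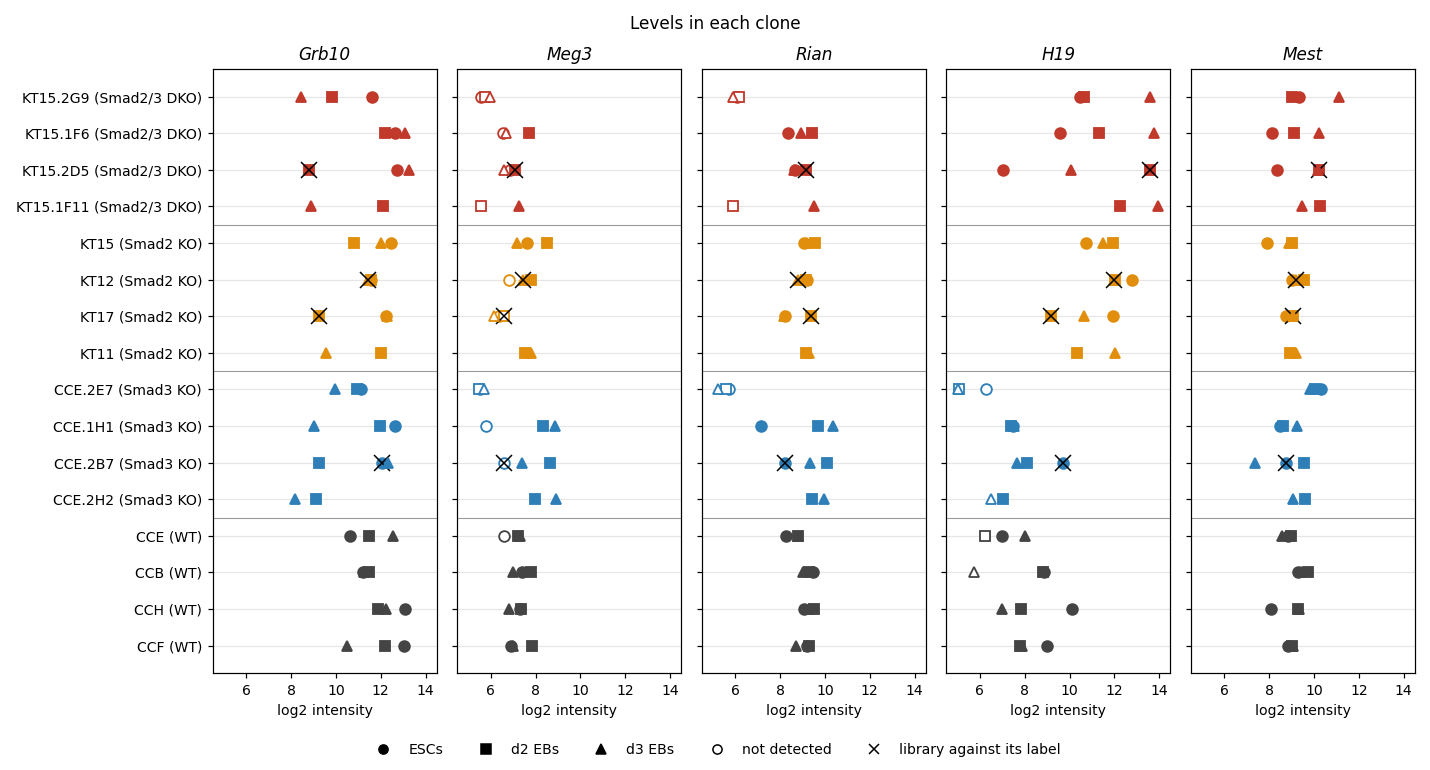
Log2 intensity (x axis) of Grb10, Meg3, Rian, H19 and Mest in each of 16 clones (rows, grouped by genotype), with a symbol for each stage, open where not detected and crossed for a doubted library. Meg3 and Rian lie at the left end in all arrays of CCE.2E7 and KT15.2G9. The 3 Grb10 symbols of KT15.2D5 span 8.79 to 13.27, where 8.79 is the doubted d2 library and the ESC value is 12.72.

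The spread between arrays of a group, each from another clone, was measured as the SD of arrays around their 12 group means. It was 1.39 log2 units for Grb10, 1.33 for H19, 1.17 for Igf2, 0.85 for Meg3, 0.84 for Peg3, 0.80 for Cdkn1c and Dlk1, 0.62 for Phlda2, 0.61 for Mest and 0.48 for Peg10. The median of the 10 was 0.82, against 0.36 over all 16896 tested probes. Grb10, H19 and Igf2 exceeded 99.7%, 99.6% and 99.2% of all probes, and the lowest, Peg10, 73.5%. Without the doubted libraries the median was 0.76, against 0.32 over all probes. Peg3 lost the most, with an SD of 0.47, and Igf2 fell to 0.84, while Grb10 (1.38) and H19 (1.25) changed little. Compared with probes within 0.5 log2 units of the same mean level, 9 of the 10 SDs stood above 89.6% or more of them, and that of Peg10 above 58.5%.

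How much of this spread belonged to the clone was described by the correlation of deviations between arrays of the same clone at different stages. It was 0.49 for Meg3, higher than for 98.5% of all probes, 0.33 for Dlk1, 0.22 for Mest and 0.16 for H19, and at or below 0 for Igf2 (-0.20), Cdkn1c (-0.07), Phlda2 (-0.25), Peg10, Peg3 (-0.08) and Grb10 (-0.09). When those 4 libraries were left out it was 0.49 for H19, 0.41 for Meg3, 0.36 for Peg3 and 0.11 for Grb10. The median of the 10 was then 0.20, against 0.07 over all probes. With all libraries the medians were -0.04 and 0.04.

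**Figure D4:**
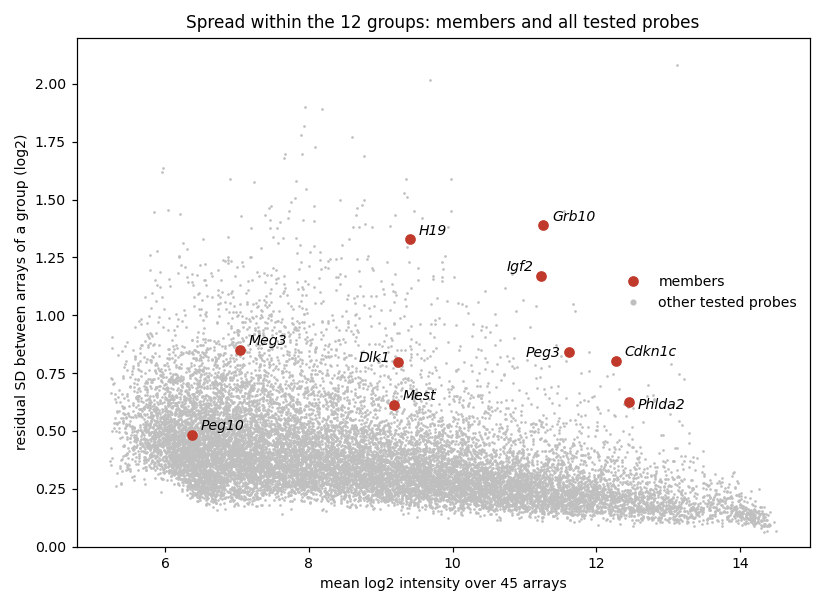
Residual SD between arrays of a group (y axis, log2 units) against mean log2 intensity over 45 arrays (x axis) for all tested probes (grey) and the 10 imprinted genes (red). Grb10, H19 and Igf2 lie at SDs of 1.39, 1.33 and 1.17, above nearly all probes of like intensity, and Peg10 (0.48) lies within the cloud.

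Other imprinted genes moved in both directions. Of 30 tested of 56 listed, 7 rose and 4 fell in d3 Smad2/3 DKO EBs against WT (9.51% and 7.51% of all genes), with a median change of 0.05, beside -0.03 over all genes. The largest rises were of Ascl2, a trophoblast transcription factor, with 10.69, 8.53, 9.37 and 9.37 in Smad2/3 DKO clones and no detection in WT lines (at least 7-fold higher, adjusted p = 1.42e-05), Sfmbt2, a Polycomb-related gene needed in mouse trophoblast (2.79 ± 0.39, adjusted p = 0.00022), and Slc22a18, a neighbour of Cdkn1c and Phlda2 (at least 3.58-fold, adjusted p = 0.00081). Ddc, which neighbours Grb10, rose by 2.42 ± 0.65 (adjusted p = 0.0193). Neither Kcnq1ot1, the noncoding RNA of the Cdkn1c domain (0.24 ± 0.45, adjusted p = 0.775), nor Igf2r, which removes Igf2 from the cell surface (0.69 ± 0.35, adjusted p = 0.206), was called. At d2 Slc22a18 was at least 1.23-fold higher (adjusted p = 0.012) and Dcn at least 1.14-fold lower (adjusted p = 0.00424), and the other 28 genes were not called. In d3 WT EBs against ESCs 5 of the 30 rose and 7 fell, beside 18.7% and 16.4% of all genes, so that these shares lie near those of all genes. The changes were led by Ddc (-3.27 ± 0.42), Nnat (2.37 ± 0.56), Ndn (2.12 ± 0.27) and Gab1 (-1.82 ± 0.21), all at an adjusted p of 0.00531 or lower.

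Of 12 tested genes of the insulin-like growth factor and insulin axis 1 rose in d3 Smad2/3 DKO EBs and 0 fell. Of all genes 9.51% rose and 7.51% fell, so the count of rises lies near that share. The gene that rose was Igfbp5, which encodes an Igf binding protein (2.34 ± 0.68, adjusted p = 0.0285). Without the doubted libraries 2 of the 12 rose and 3 fell, where 23.2% of all genes were called. Between d3 and ESCs in WT cells 7 rose and 2 fell, beside 18.7% and 16.4% of all genes. Among those that rose were Igfbp4 (2.17 ± 0.63), Igfbp3 (2.01 ± 0.43), the insulin receptor gene Insr (1.6 ± 0.33) and Igf1r (1.47 ± 0.26, adjusted p at most 0.0178). Igf1r encodes the receptor through which Igf2 promotes growth. Of 10 tested genes of imprint maintenance 2 rose and 1 fell in d3 Smad2/3 DKO EBs (9.51% and 7.51% of all genes). Dppa3, which protects methylation in the mouse zygote, rose by 3.96 ± 0.45 (adjusted p = 3.59e-05) and also in d3 Smad2 KO EBs (4.14 ± 0.45, adjusted p = 0.000388). Dnmt3l, the partner of the de novo methyltransferases, rose by 2.01 ± 0.63 (adjusted p = 0.041), and Ctcf, which binds the Igf2 and H19 control region, fell by 0.83 on the log2 scale (SE 0.21, adjusted p = 0.0149). Dppa3, Dnmt3l and Tet1 were lower in d3 WT EBs than in WT ESCs (-3.57 ± 0.49, -3.09 ± 0.49 and -1.98 ± 0.28, adjusted p at most 0.000369).

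Genes with patterns most like those of the imprinted genes over the 45 arrays are given as a description, since arrays of a group share stage and genotype. Igf2 was nearest to Sct and Ccn1 (Pearson r = 0.88 each) and Fhl1 (0.87), H19 to Rhox9 (0.91), Sct (0.90) and Slc30a2 (0.89), and Peg10 to Plac1 (0.82), Slc30a2 (0.81) and Gata3 (0.80). Phlda2 was nearest to Nipal2 and Gata3 (0.78 each) and Ndrg1 (0.77), and Cdkn1c to Phlda2 (0.74), Vgll3 (0.71) and Prkag1 (0.70). Rhox9, Plac1 and Gata3 are on the trophoblast list. Meg3 was nearest to Rian (0.87) and Rtl1 (0.82), which lie in its own domain, and then to Grm6 (0.67). Peg3 was nearest to Lhfpl2 (0.89), Tpm1 (0.87) and Slc5a5 (0.86), Dlk1 to Erfe (0.77), Smarcc2 (0.76) and Sh3bgrl2 (0.75), and Mest to Ttll12 (0.70), Anapc4 (0.65) and Arhgap29 (0.63). Grb10 had no close match, its nearest genes Kptn (0.55), Tmem59 and Yipf3 (0.54 each) being the least alike of all 10. Within groups, after the group means were removed, Cdkn1c and Phlda2 still correlated at 0.71, whereas Igf2 and H19 correlated at 0.35, and at 0.15 without the doubted libraries.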

How the data were processed

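Raw intensity and detection p-values as deposited were used. The authors extracted the intensity of each probe with GenomeStudio 2009.2, as named in the submitters' processing notes, without background subtraction. The deposited detection p-value compares a probe with the negative controls of its array. The authors also deposited log2 values after background correction and quantile normalization, with settings not given in the sources used here, and these served as an alternative. The methods state that ESC arrays were left out as outliers, and each ESC knockout group holds 3 arrays. There were 0 unused columns of samples.

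Intensities were processed with neqc (offset 16) in limma 3.58.1, R 4.3.3, and read with the data.table package (1.17.8). Probes with a detection p-value below 0.01 in at least 3 arrays were tested (16896). Of all probes 34886 had 1 gene symbol. The H19 probe was named only from the supplementary data of the study, since the platform annotation does not list it. Each stage was fitted with 4 genotype means, WT stages on 12 arrays, and differences between stages on all 45, with p-values adjusted by the method of Benjamini and Hochberg over all tested probes. Clone blocks used statmod 1.5.0, and figures matplotlib 3.10.9. A fold against a group without detection is a lower bound, the mean of the higher group over the mean, per array, of the lowest detected signal or the probe's own. The scripts were tested on simulated data. Besides the 10 genes, at most 4 called genes per list and comparison and the 3 genes of highest correlation were named, and Kcnq1ot1, Igf2r and Rian were chosen after their values were seen. The genes and lists were chosen with earlier results of these data known.

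Replicate numbers of WT arrays mark the same line at each stage, per the labels, and therefore pair WT stages. Knockout numbers do not mark the same clone. Residuals of same-numbered arrays correlated at a median of 0.01 in ESCs, -0.02 at d2, 0.02 at d3 and -0.03 in WT lines, and the fits reported first had no replicate block. Precision is limited by the few arrays of each group.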

Additional observations from a re-analysis of the deposited data

Results flagged for a closer look

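In 90 groups of 4 arrays (the 10 genes in the 9 groups of that size), 3 had an array whose gap to its nearest neighbour exceeded the 95% limit of Dixon's test, where chance at 1 in 20 would give 4.5. H19 in d3 Smad2/3 DKO EBs read 10.08 in replicate 2 (KT15.2D5), beside 13.58 to 13.97 in the other clones. Peg3 in d2 Smad2 KO EBs read 8.85 in replicate 4 (KT17), one of the doubted libraries, beside 12.27 to 12.63. Peg3 in WT ESCs read 10.74 in replicate 3 (CCH), beside 10.6 to 10.62, a gap of little size in a group of small range.

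The Smad2/3 DKO effect on H19 was larger at d3 than in ESCs by 5.42 ± 1.32 log2 units (adjusted p = 0.0134), with H19 above all WT lines in 4 of 4 Smad2/3 DKO clones at d3. The change of Igf2 from WT in d3 Smad2/3 DKO EBs exceeded the sum of both single knockout changes by 3.6 ± 0.77 (adjusted p = 0.0361). In the d2 EBs the same quantity was 4.43 ± 1.09 and did not pass the threshold (adjusted p = 0.451).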

How the results depend on the processing

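No called value changed sign in any of 12 alternative settings or 57 fits that left out 1 array, over 150 pairs of gene and comparison, while a sign differed from that of the reported value in 129 instances of a pair in 1 setting or fit, called in neither. Counting any tested probe of a gene, the unadjusted threshold and leaving out the H19 probe reused the reported fit, so signs could not change in these settings. Not every setting covered every comparison. The calls of H19 in d2 and d3 Smad2/3 DKO and d3 Smad2 KO EBs (where its probe was kept), of Igf2 in d3 Smad2/3 DKO EBs, of Peg10 in d2 and d3 Smad2/3 DKO EBs and of Peg3 in d3 WT EBs against ESCs passed in every setting and fit that covered them. The number of the 10 genes called changed by over 1.5 times as follows. With median scaling it was 2 for d2 WT EBs against ESCs. With no filter it was 2 for d2 Smad2/3 DKO against WT and 0 for d3 Smad3 KO against WT, d3 Smad2/3 DKO against Smad2 KO and WT d3 against d2. With all 45 arrays in 1 fit it was 1 for d2 Smad2 KO against WT and for WT d3 against ESCs, and 0 for d3 Smad2/3 DKO against Smad2 KO, WT d2 against ESCs and WT d3 against d2. With the clone as a random block it was 0 for WT d3 against d2. At an unadjusted p below 0.05 with a fold above 1.5, it was 1 for Smad2/3 DKO and Smad3 KO ESCs and 2 for Smad2 KO ESCs against WT, 2 for Smad2/3 DKO against Smad2 KO ESCs, 2 for d2 Smad2 KO, d3 Smad2 KO and d3 Smad3 KO against WT, and 3 at d2 and 5 at d3 for Smad2/3 DKO against Smad2 KO. Without the doubted libraries, a setting chosen after the data were seen, it was 2 for d2 Smad2 KO against WT, and 2 for the departure from the sum of single effects at d3. With the H19 probe left out it was 0 for d3 Smad2 KO against WT.

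Leaving out 1 array at a time gave 2 to 5 genes for d2 Smad2/3 DKO against WT, 3 to 6 at d3, 0 to 2 for d2 and 1 to 2 for d3 Smad2 KO against WT, 0 to 1 for d3 Smad3 KO against WT, 0 to 2 for d3 Smad2/3 DKO against Smad2 KO, 1 to 1 for WT d2 against ESCs, 2 to 3 for WT d3 against ESCs and 0 to 1 for WT d3 against d2. It gave 0 to 0 for all ESC knockout comparisons, d2 Smad3 KO against WT and d2 Smad2/3 DKO against Smad2 KO. With the replicate number as a block the count was 4 for d2 and 4 for d3 Smad2/3 DKO against WT, where Phlda2 was lost at d3, and the block changed no other call of the 10 genes. Meg3 passed between d2 WT EBs and ESCs with median scaling (0.74, adjusted p = 0.0294), and Peg10 between d2 Smad2 KO and WT EBs with all arrays in 1 fit (1.55, adjusted p = 0.0119). Without background correction the change of H19 in d3 Smad2 KO EBs against WT was 3.46, beside 4.38. The cause of these changes was not tested. Signal near background limits Peg10, Meg3 and, in WT and Smad3 KO cells, H19, whose differences there are less certain than those of genes detected on all arrays.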
